A study of Mus musculus with 12 samples.

Results

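The nuclear genes for the mitochondrial respiratory chain and the ATP synthase were examined for histone acetylation in fibro-adipogenic progenitors (FAPs), muscle-resident mesenchymal cells that give rise to fat cells and fibroblasts. Members were all protein-coding genes on mouse chromosomes 1 to 8 whose symbols begin with Nduf, Uqcr, Sdha to Sdhd, Cox4 to Cox8 or Atp5. The rule found 46 genes among 21900 protein-coding genes of the RefSeq table, and genes with these prefixes number 100 over all chromosomes. The prefixes also take in 7 genes that are not subunits but assembly factors, namely Ndufaf1, Ndufaf4, Ndufaf5 and Ndufaf6 for complex I and Sdhaf1, Sdhaf3 and Sdhaf4 for complex II. The name respiratory chain genes is used for all 46.

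All cells came from C57Bl6 mdx mice, which lack dystrophin, so the controls carry the mutation too and no healthy mouse is among the groups. Young mice were 1.5 months old and old mice 12 months old, and each mouse received a daily injection into the peritoneum over 15 days, either of saline alone (vehicle) or of saline with trichostatin A (TSA), which blocks histone deacetylases, at a dose of 0.6 mg/kg/day. FAPs were sorted by flow cytometry, and neither the gate nor the number of mice behind a library is stated in the sources used here. Chromatin immunoprecipitation with sequencing (ChIP-seq) was done for H3K27ac and for H3K9/14ac, acetylated forms of histone H3 named by the lysines that carry the acetyl group, with 1 library per mark and group. There is therefore no replicate, no test between conditions was possible, and errors cover the counting of tags only. The peak lists used here run along the genome from chromosome 1 and stop early, so a gene was counted in a list only if the rows reach it. The young vehicle list of H3K27ac reaches 18 members, the old vehicle list 24, and both TSA lists 46. The H3K9/14ac lists reach 14 (young vehicle), 24 (young TSA), 24 (old vehicle) and 41 (old TSA).

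The respiratory chain passes electrons from NADH (complex I) and succinate (complex II) through complex III to oxygen at complex IV, cytochrome c oxidase, and pumps protons across the inner mitochondrial membrane. ATP synthase uses the returning protons to make ATP. Most subunits are encoded in the nucleus and made in every cell, while a few complex IV subunits have forms made mainly in heart and skeletal muscle, lung or testis. H3K27ac and H3K9/14ac are found around the start sites of active genes, and H3K27ac also at active enhancers.

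The 250 bases before the start site are printed below as examples of complex IV promoters. The ubiquitous gene is Cox6b1, and the tissue-restricted ones are Cox6b2 (testis), Cox7a1 and Cox8b (heart and skeletal muscle). The sequences are from RefSeq, build GRCm38.p6, each written 5′ to 3′ on the strand of its gene, with CG dinucleotides in capitals.
Cox6b1 (chr7:30626115-30626364, minus strand): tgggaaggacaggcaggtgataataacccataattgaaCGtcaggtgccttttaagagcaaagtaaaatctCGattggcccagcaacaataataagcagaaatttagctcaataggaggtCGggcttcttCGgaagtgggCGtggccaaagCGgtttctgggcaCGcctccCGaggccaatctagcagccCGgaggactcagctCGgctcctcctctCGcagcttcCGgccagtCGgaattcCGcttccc
Cox6b2 (chr7:4753095-4753344, minus strand): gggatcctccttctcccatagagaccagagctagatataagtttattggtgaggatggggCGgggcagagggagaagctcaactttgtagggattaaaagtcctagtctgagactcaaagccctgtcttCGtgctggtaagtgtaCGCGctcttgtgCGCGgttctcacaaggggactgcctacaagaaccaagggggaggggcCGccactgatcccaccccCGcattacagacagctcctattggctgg
Cox7a1 (chr7:30183921-30184170, plus strand): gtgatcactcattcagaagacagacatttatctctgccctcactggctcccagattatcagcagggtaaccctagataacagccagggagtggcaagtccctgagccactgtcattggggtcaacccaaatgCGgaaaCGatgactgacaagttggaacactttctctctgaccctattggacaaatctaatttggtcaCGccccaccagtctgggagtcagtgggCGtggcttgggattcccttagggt
Cox8b (chr7:140900447-140900696, minus strand): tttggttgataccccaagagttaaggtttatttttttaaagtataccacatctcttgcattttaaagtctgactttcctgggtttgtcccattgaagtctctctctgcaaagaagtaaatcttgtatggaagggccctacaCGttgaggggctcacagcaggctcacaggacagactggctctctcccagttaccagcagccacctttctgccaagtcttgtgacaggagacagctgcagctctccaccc
The Cox6b1 sequence holds 14 CG dinucleotides, Cox6b2 holds 8, Cox7a1 holds 4 and Cox8b holds 1. In the full 300-base window (250 before and 50 after the start), Cox6b1 has 17, Cox6b2 10, Cox7a1 7 and Cox8b 2. Cox7b2, another form of restricted expression, has 10. Of the members, 38 have a listed start site. Those outside the tissue-restricted complex IV group had a median of 19.5 CG dinucleotides per window (range 8 to 33, 34 genes), and the tissue-restricted group 8.5 (range 2 to 10, 4 genes). All 8884 genes with a listed start on these chromosomes had a median of 14. Genes with an H3K27ac peak in the old TSA list had a median of 22 (4933 genes), and genes without one had a median of 4 (3951 genes). The tissue-restricted forms thus had a lower median than the other members, with overlapping ranges, and all but Cox8b lay above the median of genes without a peak.

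**Figure D1:**
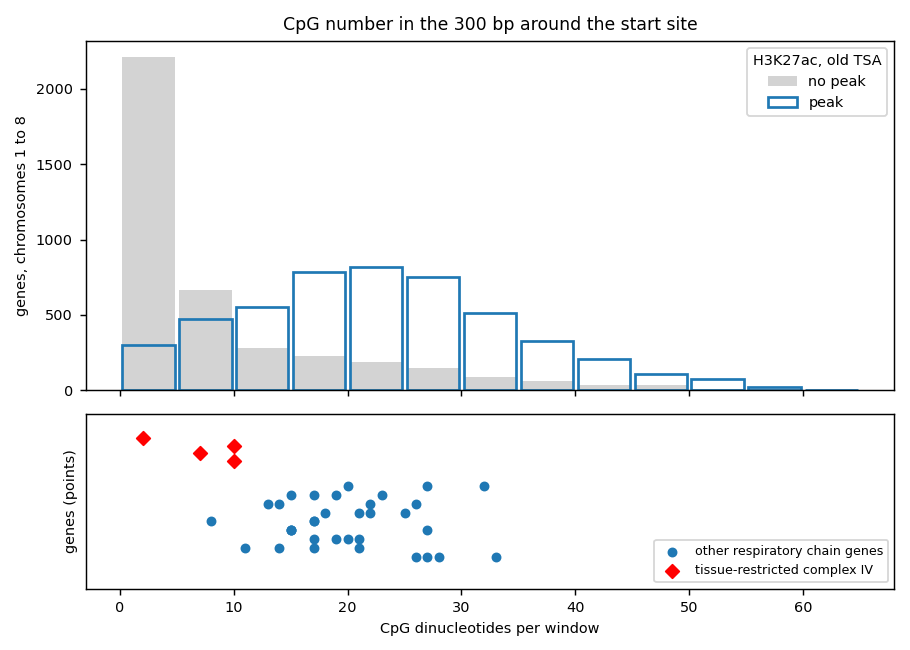
Number of CG dinucleotides (horizontal axis) in the 300 bases around the start site: upper panel, numbers of genes with and without an H3K27ac peak in the old TSA library; lower panel, 1 point per respiratory chain gene, spread vertically for visibility only. The 4 tissue-restricted complex IV genes (red) lie between 2 and 10, and the other 34 members between 8 and 33.

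Several members also share short sequence motifs of factors known to act on nuclear genes for mitochondrial proteins. The promoters below are of genes of complexes I, III and IV and were chosen after their values were seen. Matches to the palindromic NRF1 motif (by its name, with 1 free base), the ETS motif CCGGAAG (the family of GABP) and the SP motif GGGCGG, on either strand, are in capitals.
Ndufs3 (chr2:90904722-90904971, minus strand): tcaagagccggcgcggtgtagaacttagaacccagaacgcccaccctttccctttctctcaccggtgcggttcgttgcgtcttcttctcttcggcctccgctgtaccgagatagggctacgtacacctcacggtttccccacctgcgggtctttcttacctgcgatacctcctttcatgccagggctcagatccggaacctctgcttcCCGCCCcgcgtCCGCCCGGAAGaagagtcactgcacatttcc
Ndufa8 (chr2:36049339-36049588, minus strand): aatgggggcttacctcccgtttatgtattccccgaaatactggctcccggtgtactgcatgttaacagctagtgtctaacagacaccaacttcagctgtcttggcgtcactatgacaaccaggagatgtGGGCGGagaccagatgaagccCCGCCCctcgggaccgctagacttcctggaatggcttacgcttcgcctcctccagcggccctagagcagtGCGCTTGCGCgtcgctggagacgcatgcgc
Cox6a1 (chr5:115348959-115349208, minus strand): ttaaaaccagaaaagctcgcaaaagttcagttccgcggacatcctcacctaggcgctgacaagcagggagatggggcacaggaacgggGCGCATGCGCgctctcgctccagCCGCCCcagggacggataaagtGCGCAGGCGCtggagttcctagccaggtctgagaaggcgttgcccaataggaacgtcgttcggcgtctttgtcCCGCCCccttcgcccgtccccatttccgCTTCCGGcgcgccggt
Uqcrh (chr4:116075071-116075320, minus strand): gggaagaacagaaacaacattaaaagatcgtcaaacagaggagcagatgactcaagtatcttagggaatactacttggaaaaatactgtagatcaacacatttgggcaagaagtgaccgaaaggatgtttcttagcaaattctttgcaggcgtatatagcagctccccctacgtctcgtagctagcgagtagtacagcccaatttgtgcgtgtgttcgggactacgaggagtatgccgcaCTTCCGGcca
Ndufb5 (chr3:32736813-32737062, plus strand): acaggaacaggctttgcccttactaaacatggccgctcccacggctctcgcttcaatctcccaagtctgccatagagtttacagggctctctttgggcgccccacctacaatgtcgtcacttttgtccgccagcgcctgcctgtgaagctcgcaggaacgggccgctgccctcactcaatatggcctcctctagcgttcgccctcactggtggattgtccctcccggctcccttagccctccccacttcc
Cox6a1 holds matches of the NRF1 motif that begin 162 (GCGCATGCGC) and 117 (GCGCAGGCGC) bases before the start site, and an ETS match 16 bases before it. Ndufa8 has an NRF1 match (GCGCTTGCGC) 30 bases before its start, and Uqcrh an ETS match 10 bases before. In Ndufs3 the ETS match 27 bases before the start overlaps an SP match that begins 31 bases before. The Ndufb5 sequence holds none of these letters, which says nothing about binding there. Over all 38 members with a listed start, 11 (28.9%) held the NRF1 motif in the 300-base window, against 6.83% of all 8884 genes and 11.2% of the genes with an H3K27ac peak in old TSA. The ETS motif was found in 12 members (31.6%), against 12.9% of all genes and 20.1% of those with a peak. AAGATGGCG, the motif of YY1, was in 3 members (Atp5j2, Ndufa9 and Ndufc1, 7.89%), against 1.94% of all genes and 3.24% of those with a peak. The SP motif was in 19 members (50%), close to the 49.4% of all genes and below the 68.4% of genes with a peak. CCAAT was in 17 members (44.7%), against 42.1% of all genes and 42.0% of those with a peak. TATAAA was found in 5 members (13.2%), against 15.3% of all genes and 8.66% of those with a peak. Of the 5, 2 were the tissue-restricted Cox7b2 and Cox8b. TCAAGGTCA, the motif of the estrogen-related receptors, was in Atp5g3 alone among members (2.63%), against 0.428% of all genes and 0.304% of those with a peak. These counts describe letters in a window, with no test.

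Markers of the labelled cell type and the likeness of the libraries come first, since the results rest on them. FAP markers had peaks in all 8 lists (7 or 8 reached genes of 9). Of macrophage and other blood cell markers at most 1 was marked in a list, always Spi1, with summed tags from 0 to 217, and Ptprc and Fcer1g had no peak. Of muscle stem cell markers at most 1 was marked, always Myog, with summed tags from 0 to 96, and Pax7, Des and Chrna1 had none. Markers of the endothelium were marked wherever reached, apart from Tie1 in H3K9/14ac old TSA, so the libraries labelled FAPs held peaks at endothelial genes. Which of the sorted cells carried these peaks was not tested. In bulk samples a smaller share of cells of a type and less acetylation per cell cannot be told apart. Over all genes marked in 4 lists, H3K27ac libraries were most alike within an age (Spearman 0.968 in young and 0.954 in old, 1903 genes). H3K9/14ac libraries were not, as young vehicle was closest to old TSA (0.889) and young TSA to old vehicle (0.888), over 1556 genes. The H3K9/14ac comparisons below rest on these libraries as labelled.

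Nearly every member outside the tissue-restricted group carried both marks. A gene was called marked where a peak lay within 2000 bp of its body. In H3K27ac, 17 of 18 reached members were marked in young vehicle, where 55.8% of all reached protein-coding genes were. In young TSA 39 of 46 were marked (84.8%, exact binomial 95% interval 71.1 to 93.7), against 53.2% of all genes. In old vehicle the count was 21 of 24 against 51%, and in old TSA 41 of 46 against 55.3%. In H3K9/14ac, 13 of 14 members were marked in young vehicle against 57% of all genes, and 24 of 24 in young TSA against 63%. Old vehicle had 23 of 24 against 60.7%, and old TSA 37 of 41 against 57.4%. Every list thus had a higher share of members than of all genes marked. With the 6 tissue-restricted complex IV genes left out, the H3K27ac counts were 17 of 17, 39 of 40, 21 of 23 and 39 of 40, and every reached member was marked in all 4 H3K9/14ac lists (13, 23, 23 and 37 genes).

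**Figure D2:**
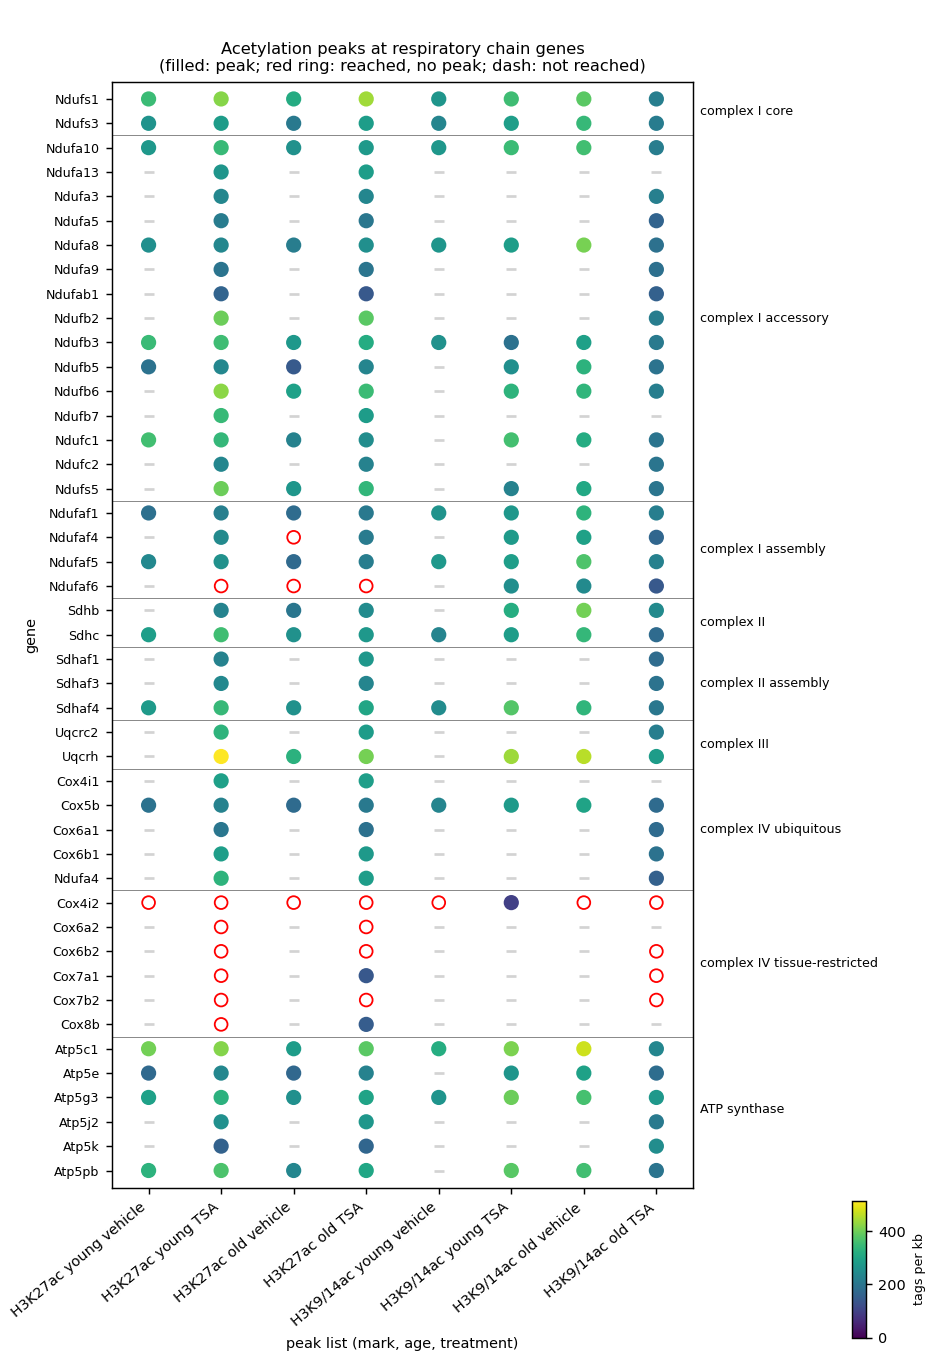
Respiratory chain genes (rows, grouped by complex) in the 8 peak lists (columns), colour giving tags per kb of peak, red rings genes that a list reaches without a peak, and grey dashes genes beyond the end of a list. Red rings gather in the tissue-restricted complex IV rows and at Ndufaf4 and Ndufaf6.

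The 2 marks fell on the same members. In young vehicle 13 of 14 members reached by both lists had both marks, where 52.2% of all genes did, and the remaining gene, Cox4i2, had neither. In young TSA 22 of 24 had both, against 52.8% of all genes. With vehicle in old mice it was 21 of 24 against 49.1%, and with TSA 36 of 41 against 51.6%. The members with H3K9/14ac but no H3K27ac were Cox4i2 and Ndufaf6 in young TSA, Ndufaf4 and Ndufaf6 in old vehicle, and Ndufaf6 in old TSA. Of all genes 10.2%, 11.6% and 5.80% were of this kind in these libraries, so the members were not more often so. Cox7a1 in old TSA was the member with H3K27ac and no H3K9/14ac peak (1 of 41, where 2.76% of all genes were so). Members with many tags of one mark tended to have many of the other, with a Spearman correlation between 0.749 (22 genes, young TSA) and 0.822 (21 genes, old vehicle). Over all genes with both marks it lay between 0.599 and 0.723. The points share peak widths and libraries, so this is a description only.

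Acetylation lay at the start sites. For members with a listed start, the start was inside an H3K27ac peak in 14 of 14 genes in young vehicle, against 40% of all genes. In young TSA it was so for 32 of 38 against 39.9%. Old mice had 16 of 19 with vehicle against 31.3%, and 32 of 38 with TSA against 38.8%. The H3K9/14ac counts were 9 of 10 against 39.7% in young vehicle, 19 of 19 against 50.3% in young TSA, 19 of 19 against 44.1% in old vehicle and 31 of 35 against 44.3% in old TSA. The H3K27ac peak over the start had a median width of 1064.5 bp in members and 1299 bp in all genes in old TSA, and 1240.5 against 1371 bp in young TSA. In H3K9/14ac the widths were closer, 1274 against 1310 bp in old TSA. These peaks reached further into the gene than before it, with medians of 385 bp before and 732.5 bp after the start for H3K27ac in old TSA. All genes had the same lean there, with 458 and 770 bp. In old vehicle members had 477.5 and 523 bp, and all genes 439 and 703 bp. The widest member peak over a start was at Uqcrh, the hinge subunit of complex III, whose start region is shared with Lrrc41.

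**Figure D3:**
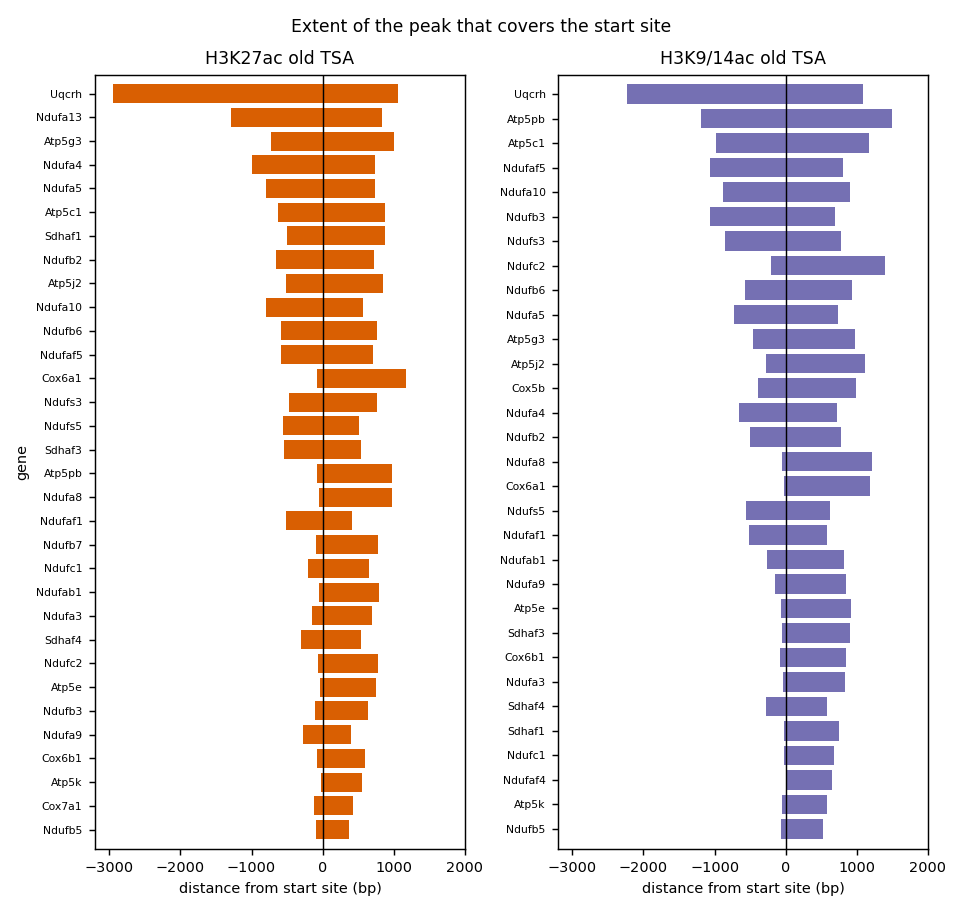
Extent of the peak that covers the annotated start site in old TSA, in bp from the start (0), with the direction of transcription to the right, for H3K27ac (left panel, 32 genes) and H3K9/14ac (right panel, 31 genes), sorted by width. Uqcrh is widest in both panels and Ndufb5 narrowest.

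Members had few peaks away from the start. Marked members had 1.41 H3K27ac peaks on average in young TSA, where all marked genes had 2.54, and 28 of the 39 had a single peak. Members are also short, with a median body of 8613.5 bp against 17643 bp for all genes on chromosomes 1 to 8, and the marked ones in young TSA with 8831 bp against 24421 bp. In total tags members did not stand above the typical marked gene in H3K27ac, with medians of 475 against 484 in young vehicle, 408 against 461 in young TSA, 274 against 307 in old vehicle and 326 against 437 in old TSA. Their H3K9/14ac medians were 350 against 289, 391 against 357, 380 against 350 and 243 against 264 over the same groups. Per kb, over all peaks of a gene, members were above the typical marked gene in every library. The median H3K27ac level was 274 tags per kb in young vehicle (all marked genes 207), 281 in young TSA (230), and in old mice 235 with vehicle (193) and 271 with TSA (223). In H3K9/14ac, over the same groups, it was 264 (192), 284 (225), 336 (258) and 199 (165). In the peak over the start alone, members did not have more H3K27ac tags than all genes with such a peak. Over the same groups the medians were 365 against 394, 335 against 383, 221 against 257 and 271 against 346. For H3K9/14ac they were 324 against 250, 393 against 319, 307 against 292 and 238 against 231. Depth differs between libraries, so these levels are compared within a library.

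Many members share their start region with a neighbour. Of the 38 members with a listed start, 11 (28.9%) had another gene's start on the opposite strand within 1000 bp and pointing away, against 8.59% of 8884 genes. The pairs are Ndufb3 with Fam126b, Atp5c1 with Kin, Ndufa8 with Morn5, Ndufs3 with Kbtbd4, Ndufaf5 with Esf1, Ndufb5 with Mrpl47, Atp5pb with Wdr77, Uqcrh with Lrrc41, Ndufa4 with Phf14, Ndufa5 with Asb15 and Ndufa13 with Tssk6. In all, 19 members had at least 1 peak that also lay within 2000 bp of another gene, so their tags cannot be given to one gene alone.

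Complex I core subunits, which carry electrons from NADH to ubiquinone, had peaks in all 8 lists. Ndufs1, the large iron-sulphur subunit, had 1043 H3K27ac tags with vehicle and 977 with TSA in young mice, and 536 with vehicle and 837 with TSA in old mice. Ndufs3 had 475, 463, 243 and 353 in the same order. Tags are raw counts, and old vehicle was the lowest for both, as it was for every one of the 17 members marked in all 4 H3K27ac lists. The whole old vehicle library was lower, with a median log2 ratio of -0.75 to young vehicle over the 1925 genes marked in both. In tags per kb, Ndufs1 had the highest H3K27ac level of all members in old TSA (439). Its peak also lay within 2000 bp of Eef1b2 in every list, so the tags cannot be given to Ndufs1 alone. Next were Uqcrh (406), the accessory subunit gene Ndufb2 (382) and the gamma subunit gene of ATP synthase, Atp5c1 (380). Uqcrh was first in young TSA (512), followed by Ndufb6 (423) and Ndufs1 (419). The Ndufb6 level includes a peak of 1364 tags over 2769 bp near Smim27 and Topors. The peak over the Ndufb6 start held 336 tags over 1247 bp. In H3K9/14ac Ndufs1 had 754, 864, 794 and 565 tags, and Ndufs3 had 350, 402, 361 and 346. Old TSA was the lowest for both.

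**Figure D4:**
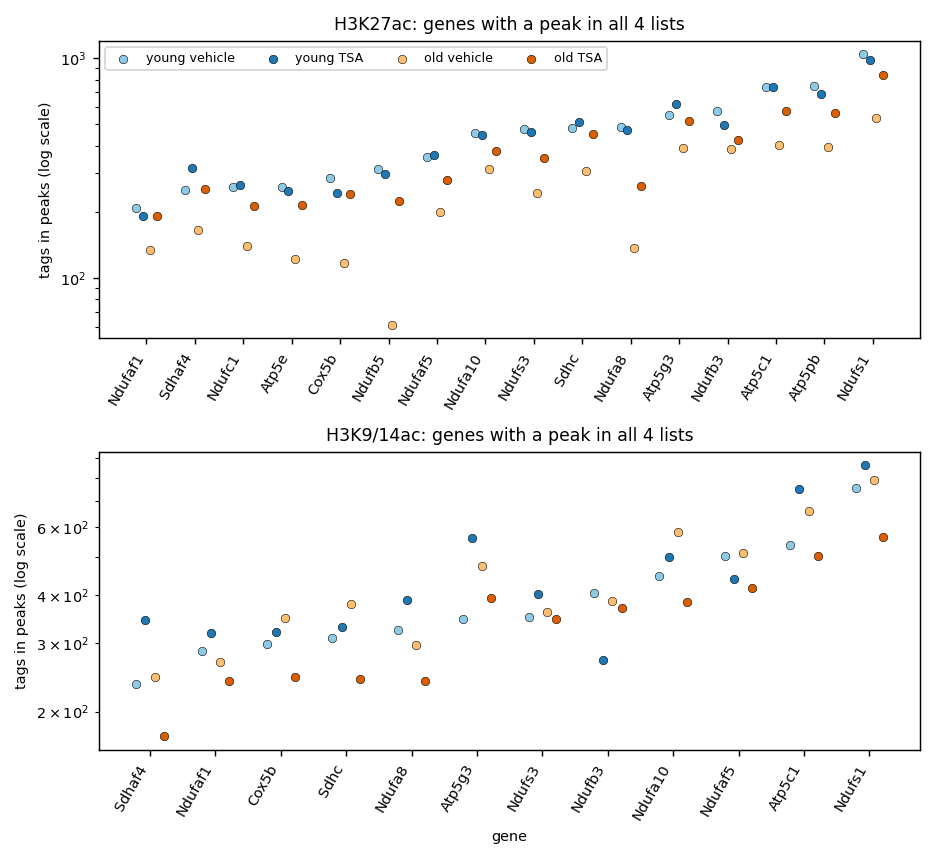
Tags in peaks (log scale, raw counts) of genes marked in all 4 lists of a mark (upper panel H3K27ac, lower panel H3K9/14ac), with 1 point per library. In H3K27ac old vehicle is lowest for every gene, and Ndufb5 (61 tags) and Ndufa8 (137 tags) lie furthest below their young vehicle values.

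The accessory subunits of complex I, which surround the core and are needed for its assembly and stability, held the members with the largest H3K27ac differences, Ndufb5 and Ndufa8. All 15 were marked in both TSA lists of H3K27ac, with a median of 312 tags (range 159 to 1700) in young TSA and 262 (121 to 1532) in old TSA. Ndufb6 had 1700 and 1532, much of them in a peak shared with Smim27 and Topors. Ndufb5 (chromosome 3, 32737057 to 32751559) had 313 H3K27ac tags with vehicle and 297 with TSA in young mice, and 61 with vehicle and 223 with TSA in old mice. The old vehicle value came from a single peak of 427 bp over the start, while the other libraries also had signal on the Mrpl47 side, as part of 1 peak of 1620 bp in young vehicle and as a second peak of 169 tags in young TSA and 116 in old TSA. Ndufa8 (chromosome 2, 36036324 to 36049338), a subunit that lies in the intermembrane space, had 488, 472, 137 and 262 tags. Both young libraries had 3 peaks at Ndufa8, of which the peak over the start held 375 and 353 tags, and both old libraries had that peak alone. Ndufb3 had 575, 497, 388 and 424 tags and was not low in old vehicle relative to the library.

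The assembly factors of complex I had a median H3K27ac level of 243 tags per kb in young TSA and 211 in old TSA, where accessory subunits had 268 and 254. The only members outside the tissue-restricted group with no peak in some H3K27ac list were among them. Ndufaf1, which helps to build the membrane arm, had 207, 191, 134 and 191 H3K27ac tags. Ndufaf5 had 355, 364, 199 and 280. Ndufaf4 had 116 tags in young TSA and 84 in old TSA and no H3K27ac peak in old vehicle, while its H3K9/14ac tags were 351 in young TSA and, in old mice, 203 with vehicle and 108 with TSA. Ndufaf6 had no H3K27ac peak in the 3 lists that reach it and 180, 190 and 112 H3K9/14ac tags in young TSA, old vehicle and old TSA. The absence of a peak is a call of the peak lists and not a count of 0, because the smallest peaks listed hold 19 to 27 tags.

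Complex II oxidises succinate and also belongs to the tricarboxylic acid cycle. Sdhc, a membrane anchor, had 482, 511, 306 and 454 H3K27ac tags. Sdhb, the iron-sulphur subunit (chromosome 4, 140961271 to 140979198), had 597 tags in young TSA and, in old mice, 227 with vehicle and 336 with TSA. In young TSA the signal at Sdhb was 4 peaks, of which the largest covered the start with 437 tags. In old TSA it was 2 peaks, and the larger one (262 tags) began inside the gene. The assembly factor Sdhaf4 had 252, 315, 165 and 254 tags. In complex III, Uqcrh had 1660, 1178 and 1630 H3K27ac tags in young TSA, old vehicle and old TSA and 1265, 1184 and 938 H3K9/14ac tags, and the core subunit Uqcrc2 had 573 and 480 H3K27ac tags in the TSA lists.

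ATP synthase members were marked wherever reached. Atp5c1 had 740 H3K27ac tags in both young libraries, 404 in old vehicle and 573 in old TSA. Atp5g3, 1 of the genes for the c ring of the rotor, had 552, 620, 390 and 517. Atp5pb, for the peripheral stalk, had 745, 685, 393 and 564, and Atp5e had 258, 248, 122 and 214. Atp5k had 95 tags in young TSA and 97 in old TSA, and at 159 tags per kb was the lowest marked member in young TSA.

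Complex IV divided by form. The 5 members made in all tissues (Cox4i1, Cox5b, Cox6a1, Cox6b1 and Ndufa4, which was first assigned to complex I) were marked in every list that reaches them. Cox5b had 285, 244, 117 and 242 H3K27ac tags, and Cox4i1, read by the TSA lists only, 554 and 412. Of the 6 tissue-restricted members none had an H3K27ac peak in young TSA and 2 did in old TSA. Cox6a2 (heart and muscle), Cox6b2 and Cox7b2 had no peak in any list that reaches them. Cox4i2, known from lung and hypoxic cells, had 1 peak in the 8 lists, of 91 tags over 942 bp in H3K9/14ac young TSA. Cox7a1 (chromosome 7, 30184171 to 30186030) had 2 H3K27ac peaks in old TSA, of 68 tags over the start and 32 tags before it. Cox8b (chromosome 7, 140898942 to 140900446) had 1 peak of 107 tags in old TSA, at 140902133 to 140902849, which lies before the start and not over it. At 138 and 149 tags per kb these 2 genes were next to Ndufab1 (142), the lowest of the other marked members in that library. H3K9/14ac in old TSA reached Cox7a1 without a peak and did not reach Cox8b. The vehicle lists of H3K27ac reach neither gene, so old TSA can be set against young TSA alone.

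Because Cox7a1 and Cox8b are forms known from heart and skeletal muscle, though not shown here to be confined to fibres, fibre markers are given beside them. In H3K27ac old TSA 4 of 10 reached fibre markers had a peak (summed tags 2942), and in young TSA 3 of 10 (1826). Tnnt1 had 1595 tags in old TSA and 887 in young TSA, Mylpf 721 and 630, and Casq1 346 and 309, while Tnnt3 had 280 tags in old TSA and no peak in young TSA. Ttn, Neb, Ckm, Atp2a1, Acta1 and Tnnc2 had no H3K27ac peak in either list. Their part in the Cox7a1 and Cox8b peaks was not tested.

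For comparisons, relative tags are the log2 ratio of a gene's tags minus the median ratio over all genes marked in both lists, with the counting standard error (SE), and a gene was called past 1.5-fold. TSA against vehicle in young mice left members close to the typical gene in H3K27ac. None of 17 was past 1.5-fold, where 2.41% of all genes were higher and 6.25% lower. The median was 0.07, and values ran from -0.11 at Cox5b to 0.44 at Sdhaf4. Members spread less than all genes, with an interquartile range of 0.149 against 0.340. FAP markers had a median of -0.84 here (7 genes, 4 lower, none higher) and endothelial markers 0.11 (3 genes).

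In old mice, 1 of 21 members was higher with TSA and none lower, where 11.2% of all genes were higher and 1.15% lower. That gene was Ndufb5, whose relative tags were 1.30 (SE 0.21), a 2.46-fold difference from 61 to 223 tags against the library median. With peaks on the gene body alone the Ndufb5 value was 0.22, and with the start-site peak alone 0.28, since the Mrpl47-side peak then drops out. Ndufaf4 had an H3K27ac peak with TSA and none with vehicle, which was so for 5.19% of all genes. The median of members was -0.03. Cox5b had 0.48 (SE 0.16), Ndufa8 0.36 (SE 0.15), and Ndufb3 was lowest at -0.44 (SE 0.10). FAP markers had a median of 0.11 (7 genes, 1 higher) and endothelial markers 0.19 (5 genes).

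Between ages with vehicle, 2 of 17 members were lower in old mice in H3K27ac and none higher, where 11.3% of all genes were lower and 6.91% higher. Ndufb5 had -1.61 (SE 0.20), a 3.04-fold difference, and Ndufa8 -1.08 (SE 0.14), a 2.11-fold difference. With the start-site peak alone these were -1.64 and -0.73. For Ndufb5 that setting uses the same 61 and 313 tags, since in young vehicle 1 peak of 1620 bp covers the start and the Mrpl47 side. It therefore cannot separate the start from that side. The count of 2 is near the share of all genes, and the member median was -0.12. Cox5b followed at -0.53 (SE 0.16) and Atp5e at -0.33, and Atp5g3 was highest at 0.25. FAP markers had a median of -0.67 (7 genes, 4 lower, 1 higher) and endothelial markers -0.47 (3 genes, 1 lower). What part this has in the Ndufb5 and Ndufa8 values was not tested.

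Between ages with TSA, the H3K27ac comparison with the most members, values below 0 prevailed. Of 39 members 31 were below 0, the value of the median gene, and the member median was -0.20. Only 3 were past 1.5-fold lower and none higher, where 4.06% of all genes were lower and 11.7% higher. Ndufa8 had -0.81 (SE 0.11), Sdhb -0.79 (SE 0.10) and Ndufc2 -0.59 (SE 0.13), the last just beyond the threshold of 0.58. With the start-site peak alone Ndufa8 had -0.29 and Ndufc2 -0.49. Next inside the threshold were Ndufab1 at -0.46 and Ndufaf4 and Cox6b1 at -0.42, and the highest members were Sdhaf1 at 0.30 and Ndufa5 at 0.23. Complexes III and IV and ATP synthase had members on both sides of 0, with Uqcrh at 0.01 and Uqcrc2 at -0.21 in complex III and Atp5k at 0.07 and Atp5c1 at -0.33 in ATP synthase. Cox7a1 and Cox8b had a peak in old TSA and none in young TSA, which was so for 2.66% of all genes. In this comparison, unlike that with vehicle, FAP markers were above the median gene, with 0.52 (8 genes, 4 higher, none lower), and endothelial markers -0.43 (7 genes, 3 lower, none higher). The part of cell composition in the members' values was not tested. Scaled by total tags instead of the median gene, the member median was -0.38 and 6 members were lower, because that scaling shifts all genes by 0.177 downwards. The median was nearer 0 with the start-site peak alone (-0.11), the upper 50% of peaks (-0.16) and the gene body alone (-0.17).

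**Figure D5:**
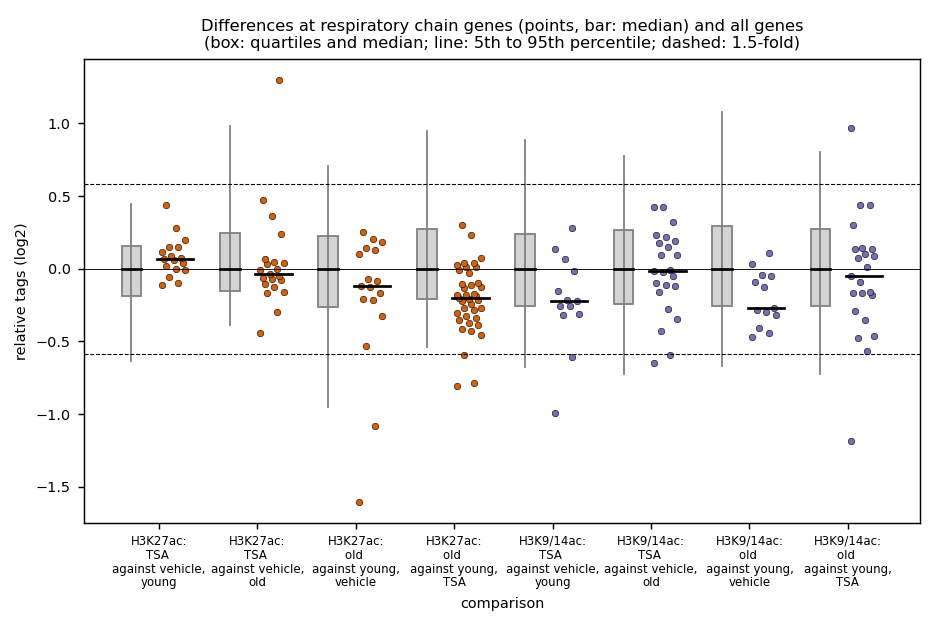
Relative tags (log2) in the 8 comparisons: points are respiratory chain genes with a peak in both lists (bar, median), grey boxes all genes (quartiles, line from the 5th to the 95th percentile), dashed lines 1.5-fold. Members cluster below 0 for H3K27ac old against young with TSA (median -0.20) and H3K9/14ac old against young with vehicle (median -0.27), and few lie beyond the dashed lines.

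In H3K9/14ac the members past 1.5-fold in some comparison were Ndufb3, Ndufaf5, Ndufc1, Ndufb5 and Ndufaf4. With TSA in young mice 2 of 13 were lower and none higher, where 6.8% of all genes were lower and 10.2% higher. Ndufb3 had 404 tags with vehicle and 271 with TSA (relative tags -0.99, SE 0.11), and Ndufaf5 504 and 441 (-0.61, SE 0.09). Both genes share their start region with a neighbour, Fam126b and Esf1. The member median was -0.22, and Cox4i2 had a peak with TSA only, as 5.63% of all genes did. The medians of FAP and endothelial markers were -0.50 (7 genes, 3 lower, 2 higher) and 0.34 (2 genes).

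With TSA in old mice 2 of 23 members were lower and none higher, where 8.26% of all genes were lower and 9.33% higher. Ndufc1 had 305 tags with vehicle and 139 with TSA (-0.65, SE 0.15), and Ndufb5 461 and 219 (-0.59, SE 0.12). Ndufb5 thus had fewer relative H3K9/14ac tags and more relative H3K27ac tags with TSA in old mice. Its H3K9/14ac value is just past the threshold, and was -0.53 with the start-site peak alone. Its H3K27ac value, 1.30 with all peaks, was inside 1.5-fold with the start-site peak or the gene body alone, as given above. The member median was -0.02, that of FAP markers 0.28 (7 genes, 3 higher, 2 lower) and that of endothelial markers -0.42 (4 genes, 1 higher, 1 lower).

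Between ages with vehicle, none of 13 members was past 1.5-fold in H3K9/14ac, where 13.6% of all genes were higher and 7.06% lower. The median was -0.27, and 11 of 13 members were below 0, from Ndufa8 at -0.47 (SE 0.12) to Atp5c1 at -0.05, with Ndufa10 at 0.03 and Atp5g3 at 0.11 above. With peaks within 5000 bp the member median was -0.14, and with total-tag scaling -0.35. FAP markers had -0.34 (7 genes, 3 lower, 2 higher) and endothelial markers 0.03 (2 genes). Between ages with TSA, 1 of 23 was higher and 1 lower, where 9.86% of all genes were higher and 7.98% lower. Ndufb3 had 271 tags in young TSA and 370 in old TSA (0.97, SE 0.12), and Ndufaf4 351 and 108 (-1.18, SE 0.16). With the start-site peak alone Ndufb3 had 1.84, since in old TSA 1 peak of 1766 bp spans the stretch that the young library lists as separate peaks of 123 and 148 tags. The member median was -0.05, that of FAP markers 0.62 (7 genes, 4 higher, none lower) and that of endothelial markers -0.77 (4 genes, 3 lower, 1 higher). Cox4i2 had its single peak in young TSA and none in old TSA, as 4.3% of all genes had.

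The comparisons share libraries, so their values are not independent. Ndufa8 had values below 0 in the 4 comparisons of old with young mice, -1.08 and -0.81 in H3K27ac and -0.47 and -0.18 in H3K9/14ac, the last with an SE of 0.12. For Atp5g3 the same 4 values were 0.25, -0.22, 0.11 and 0.01.

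The lists of pathway genes outside the rule were chosen with earlier results known. In H3K27ac old TSA all 22 reached assembly factors outside the rule had a peak, as did all 13 genes of electron carriers and coenzyme Q, all 8 of the tricarboxylic acid cycle and pyruvate entry, and all 6 regulators of mitochondrial genes. Of the 10 glycolytic genes 9 had a peak, the exception being Ldhb. Among all genes 55.3% had one in that list, and among members 41 of 46. Between ages with TSA the tricarboxylic acid cycle genes had a median of -0.20 (8 genes, none past 1.5-fold), from Suclg1 at -0.36 and Mdh2 at -0.34 to Fh1 at -0.01 and Idh2 at 0.37. Electron carriers and coenzyme Q had -0.08 (13 genes, none past 1.5-fold), with Coq7 at -0.30 and Etfdh at -0.28 lowest and Coq8b at 0.25 and Coq8a at 0.37 highest. In this comparison 11.7% of all genes were higher and 4.06% lower, shares that also stand beside the glycolytic genes and regulators below. Among assembly factors outside the rule the median was -0.07, with 3 of 22 higher and 1 lower. The extremes were Tmem177 at 1.43 and Dmac2 at 0.67, and Pet100 at -0.77 and Cox18 at -0.44. Glycolytic genes had 0.18 (9 genes), with Tpi1 higher at 0.88, Hk2 at 0.22, Eno1 at -0.07 and Pdk1 at -0.32. Regulators had 0.03 (6 genes), with Ppargc1a, the coactivator of mitochondrial biogenesis, higher at 0.71, Nrf1 at 0.32, Tfb2m at -0.24 and Gabpb1 at -0.31.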

How the data were processed

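The 8 peak lists of FAPs were used, 1 library per mark, age and treatment, out of 12 samples. The 4 input samples were not used here. Per the file headers, the lists came from HOMER's differential peak program with each library set against itself, and the whole-number tag counts per peak that the authors deposited are not normalized. The submitters' processing notes name TopHat2 2.0.9, HTSeq 0.6.1p1, DESeq2, Bowtie 0.12.7, MACS2, HOMER and GRCm38, with no role given. Each list as used here holds 12.6% to 50.8% of the peaks its header states, and the sources used here do not state library depth.

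Gene bodies came from RefSeq, GRCm38.p6. Tags of all peaks within 2000 bp were summed per gene in Python 3.11.15, the log2 ratio was centred on genes marked in both lists, and the counting error was taken from the tags. The calculation was tested on simulated data. Members and lists were chosen with earlier results of these data known. All 154 listed genes matched the table by symbol, of which those in reach of a list are reported. Of the members, 1 is included in counts and medians and is not reported singly here. Named genes are the members reached by all 4 lists of a mark, those past 1.5-fold, marked in 1 list only or in none, the tissue-restricted forms, and the 2 highest and 2 lowest of each pathway list. Some others, such as the promoters printed, were chosen after their values were seen. Alternatives were the peak window, proportional tags, total-tag scaling, a fold threshold of 2, the upper 50% of peaks, the 4-list stretch, and, chosen after seeing the data, the start-site peak alone. Motifs were searched in 300-base windows (250 before, 50 after the start).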

Additional observations from a re-analysis of the deposited data

Results flagged for a closer look

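In H3K9/14ac, 4 of the 13 members marked in all 4 lists had relative tags for TSA against vehicle of opposite sign in young and old mice. Each value was beyond its 95% counting interval. The share of all genes that meet this criterion is not given here, so whether 4 is unusual cannot be told. The difference between the ages was not tested, since there is 1 library per group. Ndufb3 had relative tags of -0.99 in young and 0.42 in old mice, a difference of -1.41. Ndufaf5 had -0.61 and 0.19 (difference -0.80), Ndufs3 had -0.22 and 0.42 (difference -0.64), and Ndufaf1 had -0.26 and 0.32 (difference -0.58). These signs depend on the centring, as the median log2 ratio over all genes was 0.42 in young and -0.48 in old mice. In raw tags Ndufs3 went from 350 to 402 with TSA in young and from 361 to 346 in old mice. Ndufaf1 went from 287 to 320 and from 268 to 240. Raw tags of Ndufb3 and Ndufaf5 were lower with TSA at both ages. No member met this criterion in H3K27ac. Over all genes the H3K9/14ac libraries were most alike across age and treatment, as described above. Over the 13 members marked in all 4 lists the order was another one, with old vehicle closest to old TSA (Spearman 0.960) and to young vehicle (0.945), and young TSA between 0.764 and 0.791 with each of the others. What part the young TSA library has in the 4 values was not tested.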

How the results depend on the processing

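No paired analysis was possible because each group has 1 library and the labels carry no replicate number, and for the same reason no replicate could be left out. The number of members with a peak stayed within 1.5 times its value under all 24 alternatives run. Of 64 counts of members past the fold under alternatives, 41 were equal to the count reported or within 1.5 times of it, and 23 were not. The 41 include changed counts, such as 4 for H3K27ac age with TSA on the gene body (3 reported), and 1 higher and 1 lower for H3K9/14ac TSA in old on the gene body (2 lower reported). On the gene body alone, the H3K27ac counts were 2 for TSA in young, 2 for TSA in old and 4 for age with vehicle, and the H3K9/14ac count for age with TSA was 4. With total-tag scaling they were 1 for H3K27ac TSA in young, 6 for H3K27ac age with TSA and 1 for H3K9/14ac TSA in old, and peaks within 5000 bp also gave 1 for the last. A fold threshold of 2 gave 0 for H3K27ac age with TSA and for H3K9/14ac TSA in young and in old, and 1 for H3K9/14ac age with TSA. With the upper 50% of peaks, H3K27ac gave 2 for TSA in young, 0 for TSA in old, 1 for age with vehicle and 1 for age with TSA, and H3K9/14ac gave 1 for age with vehicle and 4 for age with TSA. In the stretch of all 4 lists, H3K27ac age with TSA gave 1, H3K9/14ac TSA in old 0 and H3K9/14ac age with TSA 1. The start-site peak alone gave 1 for H3K27ac TSA in young and 1 for H3K9/14ac age with vehicle. The cause of these moves was not tested. Total-tag scaling moved the H3K27ac median for TSA in young to 0.22, a shift of 0.156 of all genes. Member medians near 0 changed sign under some alternatives, as H3K27ac TSA in young did (-0.03 with the start-site peak alone), and those for H3K9/14ac TSA in old and age with TSA did too. Of the values of single members past the fold, 64 stayed past it under an alternative, 11 fell inside it and none reversed. Tag number limits precision, and Ndufb5 in old vehicle (61 tags), Ndufaf4 (84 tags in old TSA) and the Cox7a1 (100) and Cox8b (107) peaks are among the least precise values.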
